A study of Macaca mulatta with 24 samples.

Results

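The comparison described here set omental fat of 6 macaques that carried a testosterone implant on chow (T) against that of 6 macaques that carried a cholesterol implant on chow (C). The 12 animals were chosen by their labels alone, out of 24 in the series, and all 841143 CpGs of the table were used. Every animal was a female rhesus macaque, labelled as 4 years old, with 3 years of implant treatment. The methods of the study give an older age at the time of biopsy. The remaining 12 animals received a high-fat western-style diet, with cholesterol (WSD) or with testosterone (T+WSD), and they served here only to set methylation classes and to place the results. The study assigned animals to treatments at random and then picked 6 of each treatment that reflected the metabolic findings of their group, so these animals are not a random draw.

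DNA methylation in mammals is the addition of a methyl group to cytosine, mostly where a guanine follows (CpG). Most CpGs that lie apart from others are methylated in most cells, while CpG-dense stretches at gene starts are mostly free of methylation. CpGs with intermediate levels are often found in distal regulatory sequence, in imprinted genes, on the inactive X chromosome and where the cells of a tissue differ. Visceral fat is a mixture of adipocytes, mesothelial, vascular, stromal and immune cells, and the androgen receptor is a transcription factor that many of them can express. The biopsies were whole tissue, so a change in the cells present and a change of methylation within cells cannot be told apart.

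Reduced-representation bisulfite sequencing reads the CpGs near cut sites of the enzyme MspI, and each value is the percentage of reads that were methylated in one animal. T animals had a value at 717554 to 820880 CpGs and C animals at 767744 to 826713. T 16 had the most CpGs without a value, 14.7%, against 1.72% to 8.73% in the C animals. Read depth at single CpGs is unknown here beyond the minimum set by the authors. Animal numbers run from 1 to 12 in C and T+WSD and from 13 to 24 in T and WSD. The labels do not say what the numbers mean. Within C and T no fit can hold them as a term, so the testosterone implant and the series of numbers cannot be told apart in any result of T against C.

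Average methylation was slightly lower under testosterone on chow. Taking the 530662 autosomal and X-linked CpGs that were measured in each of the 12 animals, the lowest T animal had a mean of 45.6%, the median T animal 46.5% and the highest 46.8%. The C animals ran from 46.6% through a median of 46.9% to 47.6%. The ranges overlapped narrowly, with T 18 lowest and C 1 highest. The mean was 46.4% ± 0.439 (SD, n = 6) in T and 47.0% ± 0.370 (SD, n = 6) in C, a difference of -0.555 percentage points (two-sided exact permutation test, p = 0.0303). This call rested on single animals. It was lost without T 14, T 17, T 18, C 1, C 2 or C 4, each left out alone, where the p-values of the exact permutation test were 0.0541 to 0.0628. Over all CpGs with a value in an animal the difference was -0.877 points (exact permutation test, p = 0.0433), and as the median of the tile means it was -1.56 points (exact permutation test, p = 0.00433).

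The difference was found where CpGs were sparse. CpGs were placed in 5 classes by the number of measured positions within 500 bp on each side, and the sparsest class, with 1 to 4 positions, held 122771 CpGs. In that class the T animals ran from 71.4% through a median of 72.0% to 72.68%, and the C animals from 72.72% through a median of 73.0% to 74.2%. Every T animal lay below every C animal. The difference was -1.22 points (exact permutation test, p = 0.00216, the smallest that 924 splits can give, and 0.0108 after Benjamini-Hochberg adjustment over the 5 classes), and it passed with each of the 12 animals left out in turn.

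Denser classes differed less. The difference was -0.829 points in the class of 5 to 7 positions (exact permutation test, adjusted p = 0.0162) and -0.563 points in the class of 8 to 13 positions (exact permutation test, adjusted p = 0.0433). The last of these calls held in 4 of the 12 runs that left out an animal, those without T 13, T 15, T 16 or C 3. With 14 to 22 positions the difference was -0.159 points (exact permutation test, adjusted p = 0.630), and with 23 to 92 positions, a class with a mean near 13.8% in C, it was 0.101 points (adjusted p = 0.831 by the same exact test). The contrast between the ends of this range was tested itself, after the class values had been seen. The sparsest class minus the densest class was 58.1 ± 0.898 points in T and 59.4 ± 0.322 in C, a difference of -1.32 points (exact permutation test, p = 0.00433, and 0.0195 after adjustment over 6 such contrasts). A contrast of 80% to 95% minus 0% to 5% passed too, at -0.851 points (exact permutation test, adjusted p = 0.0195). The contrast of 40% to 60% minus 95% to 100% was -1.28 points, that of sparse minus dense CpGs over 80% was -0.604 and the same under 20% was -0.406, each with an adjusted p of 0.0597 in the exact permutation test, so none of these passed.

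**Figure D1:**
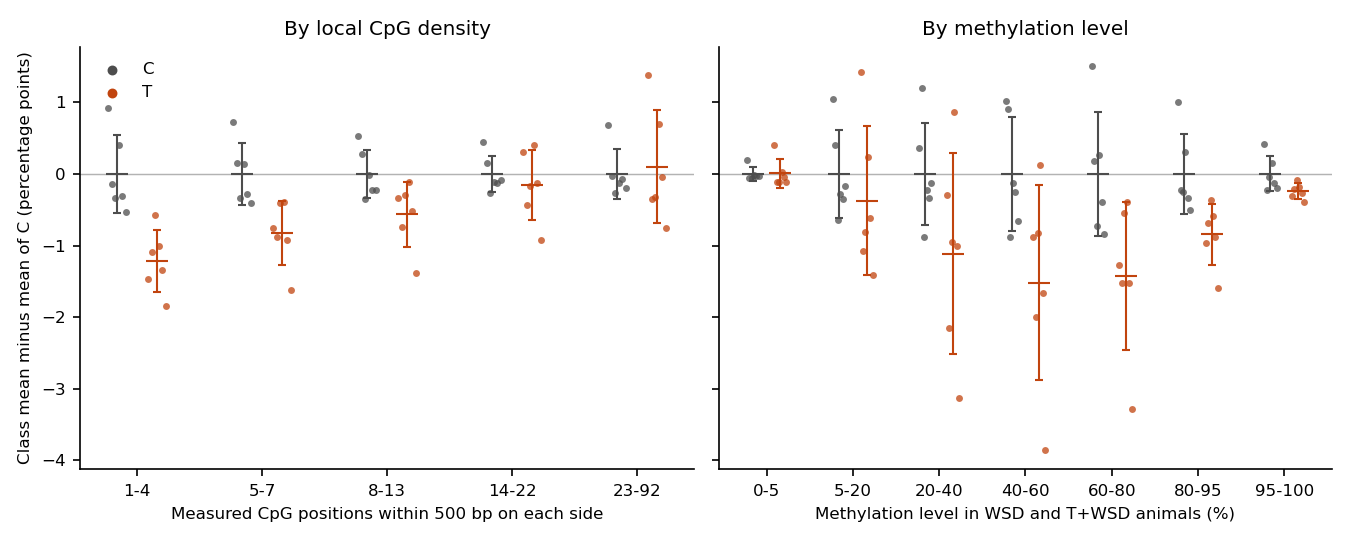
Mean methylation of each animal in classes of local CpG density (left) and of methylation level (right), as the value minus the mean of the C animals in percentage points, with the group mean and SD as bars. In the sparsest class, with 1 to 4 measured positions, all T animals lie below all C animals, and the difference is 0.101 points in the densest class.

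By methylation level, the largest differences stood at intermediate CpGs and the most even ones at high CpGs. Levels were set by the WSD and T+WSD animals, so that class and comparison share no values. The 32374 CpGs at 40% to 60% were at 48.3% to 52.3% in T, with a median of 50.9%, and at 51.3% to 53.1% in C, with a median of 51.9%. Of the T animals, 4 lay below all C animals. The difference was -1.52 points (exact permutation test, p = 0.0390, and 0.0720 after adjustment over 7 classes). At 60% to 80% it was -1.42 points (exact permutation test, adjusted p = 0.0606).

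The class of 80% to 95%, with 121002 CpGs, was the 1 of 7 that passed. T animals ran from 88.4% through a median of 89.2% to 89.6%, and C animals from 89.5% through a median of 89.8% to 91.0%, so that 5 T animals lay below all C animals. The difference was -0.844 points (exact permutation test, adjusted p = 0.0303), and this call was lost in 6 of the 12 runs that left out an animal, those without T 13, T 14, T 17, T 18, C 1 or C 4. Among the 180498 CpGs under 5%, where promoters and other CpG islands are usually found, the difference was 0.007 points (exact permutation test, adjusted p = 0.948). This class as a whole gave no detectable difference between T and C.

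The same shift can be read as shares of CpGs. Between 20% and 80% methylation lay 20.9% to 22.3% of the CpGs of a T animal, with a median of 21.7%, and 18.8% to 21.5% of those of a C animal, with a median of 20.8%. The share was 1.11 points higher in T (exact permutation test, p = 0.0216, and 0.0519 without T 13), and 0.940 points higher with limits of 10% and 90% (p = 0.206 in the exact test). CpGs above 80% made up 34.96% to 36.6% in T and 36.4% to 38.7% in C, a measure added after the data had been seen. That share was lower by 1.23 points in T (exact permutation test, p = 0.00649). The distance of an animal from the median of the WSD and T+WSD animals at intermediate CpGs was 11.2 ± 2.20 points in T and 11.2 ± 1.27 points in C (exact permutation test, p = 0.974), and T 16 stood apart at 15.5.

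Level and density were then crossed, in 9 classes. In the 59849 sparse CpGs of 20% to 80%, with at most 6 measured positions, T animals ran from 56.5% through a median of 57.7% to 58.7%, and C animals from 58.9% through a median of 59.6% to 60.8%. The groups did not overlap. The difference of -1.92 points was the largest of the 9 (exact permutation test, p = 0.00216, adjusted p = 0.0195), and it passed with each of the 12 animals left out. At the same level but with 17 to 92 positions the difference was 0.291 points, and the T animals spread from 42.7% to 51.1%, around the C range of 45.3% to 47.7%. Sparse minus dense CpGs of this level differed between T and C by -2.21 points (exact permutation test, adjusted p = 0.0671), so the contrast within this level did not pass.

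Methylation was lower in T in 3 more of the 9 classes. Sparse CpGs over 80% differed by -0.774 points, those of 7 to 16 positions over 80% by -0.514 points and sparse CpGs under 20% by -0.386 points, each with an adjusted p of 0.0292 in the exact permutation test. Leaving out 1 animal at a time kept 8, 5 and 4 of 12 runs past the threshold. Among CpGs over 80%, the dense ones differed by -0.170 points (exact permutation test, adjusted p = 0.740).

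**Figure D2:**
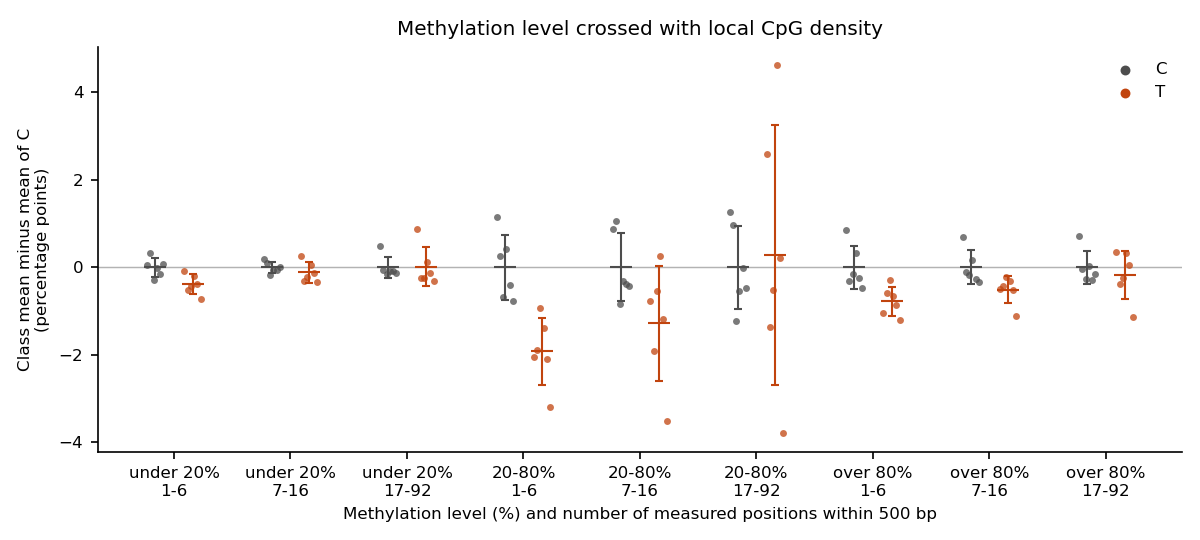
Mean methylation of each animal in 9 classes of level (under 20%, 20-80%, over 80%) and number of measured positions within 500 bp, as the value minus the mean of the C animals in percentage points, with group mean and SD. Only in the class of 20-80% with 1 to 6 positions do all T animals lie below all C animals, and T animals spread most at 20-80% with 17 to 92 positions.

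Each group was set beside the animals on the western-style diet over the CpGs measured in all 24 animals. In the sparsest density class the means were 72.5% ± 0.547 (SD, n = 6) for C and 71.3% ± 0.434 (SD, n = 6) for T, while WSD had 71.6% ± 0.785 and T+WSD 71.2% ± 0.438. The animals of T, WSD and T+WSD overlapped in range here, and the diet groups were not tested against the others. C had the highest mean of the 4 groups in this class. Classes of methylation level were not compared in this way, since WSD and T+WSD set them.

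Every chromosome was lower in T by its mean, from -0.423 points on chromosome 4 to -0.799 points on chromosome 10. Of 21 chromosomes, 11 passed the exact permutation test after adjustment, namely 1, 2, 5, 8, 10, 12, 13, 14, 15, 16 and 20. The adjusted p was 0.0455 for chromosome 14 and 0.0496 for each of the others, directly under the threshold of 0.05. Chromosome 14 ran from 44.2% to 45.276% in T and from 45.277% to 46.2% in C, so its groups did not overlap but almost touched. No chromosome passed without T 14, T 17, T 18, C 1, C 2, C 3, C 4 or C 5. Without T 15, C 6, T 13 and T 16 the counts were 1, 5, 8 and 15, and with the same mix of methylation levels on every chromosome 4 passed.

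Chromosome 10 departed from the rest of the genome. Its mean minus that of all other CpGs of the same animal ran from 3.42 points through a median of 3.51 to 3.58 in T, and from 3.599 points through a median of 3.80 to 3.94 in C. All T animals lay below all C animals, although the shift of -0.260 points was small (exact permutation test, p = 0.00216, and 0.0455 after adjustment over 21 chromosomes). None of the other 20 passed. The call on chromosome 10 was lost without any of T 13, T 14, T 15, T 16, T 17 or T 18, and over the CpGs measured in all 24 animals, where the adjusted p of the exact test was 0.0909. Chromosome 10 held no single called CpG. Of all autosomes it had the largest share of CpGs at 20% to 80%, 26.6%. The comparison with the rest was not tested with an equal mix of levels.

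The X chromosome was set apart by its levels. Of its CpGs 47.0% lay at 20% to 80%, against 15.8% to 26.6% on the autosomes. T animals ran from 52.6% to 55.7% on X and C animals from 53.9% to 55.4%, and the difference was -0.773 points (exact permutation test, adjusted p = 0.169). T 16 was the highest and T 14 the lowest of all 12 animals on X, and the SD of T was 1.03 points there, the widest of any chromosome.

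**Figure D3:**
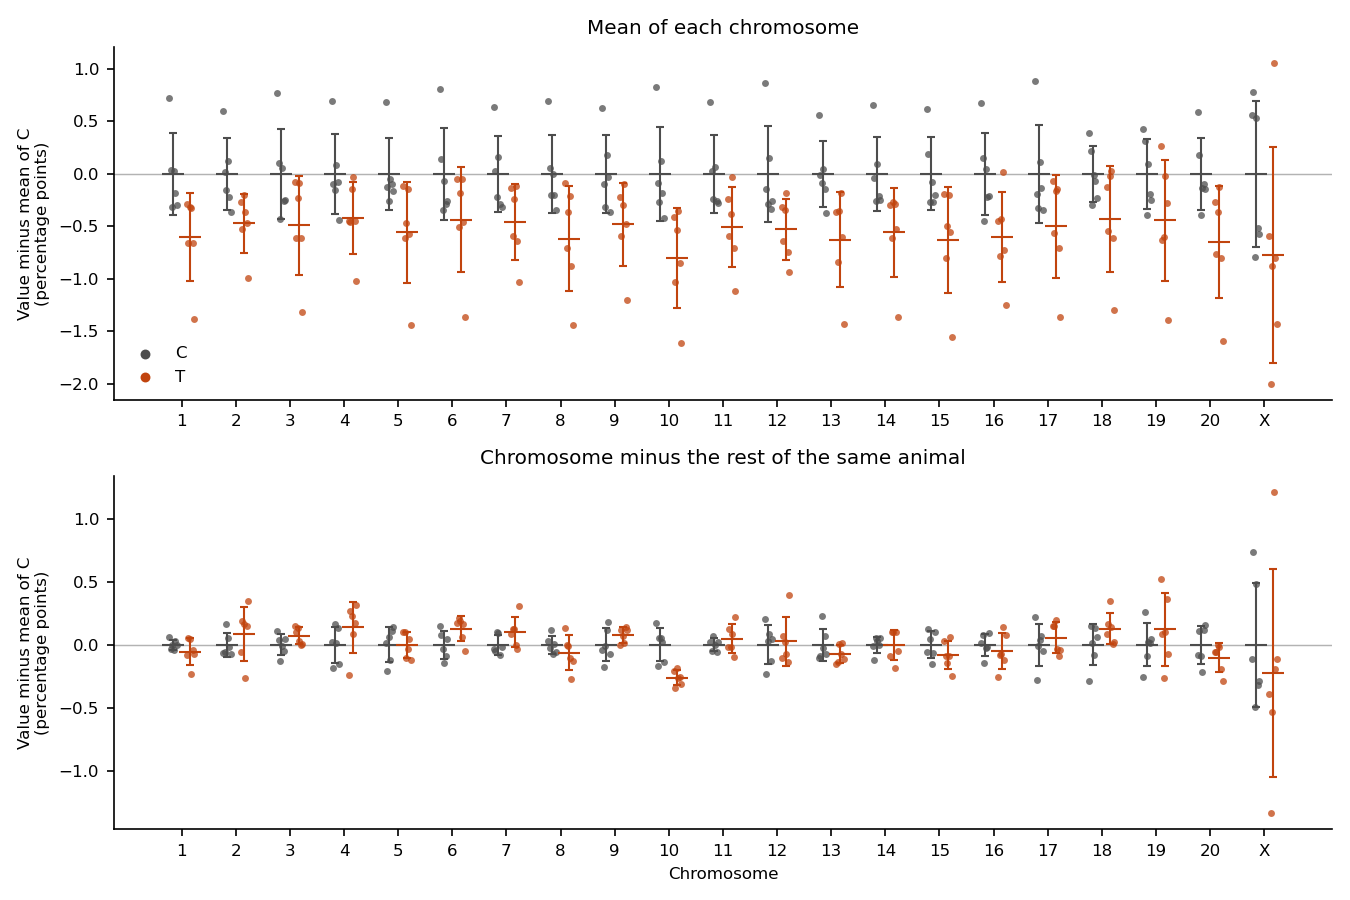
Mean methylation of each animal by chromosome (top) and the chromosome mean minus that of all other CpGs of the same animal (bottom), both as the value minus the mean of C in percentage points, with group mean and SD. By group mean T lies below C on each chromosome, while the animals overlap on all but chromosome 14 and T 16 is above every C animal on X, and in the lower panel chromosome 10 is the one where the groups do not overlap.

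At single CpGs the lean towards lower methylation was shallow. Of all CpGs, 3.51% were lower in T at an unadjusted p under 0.05 (limma on arcsine-transformed rates, all 4 groups in one fit) and 2.07% were higher. Where nothing differs, a share of about 0.05 is expected under that limit, both directions together. Among the CpGs complete in the 12 animals, every T animal lay below every C animal at 815, or 0.154%, and above at 328, or 0.0618%. Random splits of 12 animals give no overlap, in either direction, at a share of at most 0.00216 (exact permutation). Both observed shares together are near that, so what is described here is their imbalance, not an excess of separated CpGs. Shares of CpGs lower at an unadjusted p under 0.05 rose from 1.96% in the densest class to 4.69% in the sparsest one, while the shares higher were 1.83% and 2.06%.

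Differentially methylated CpGs (DMCs) numbered 47, or 0.00559% of those tested, at a limma adjusted p under 0.05 and a difference over 10 points. Methylation was lower in T at 45 of them, or 0.00535% of all CpGs, and higher at 2, or 0.000238%. They lay in 43 windows of 1 kb, and 35 of the 47 were on autosomes, 6 on X and 6 on unplaced scaffolds. X held 12.8% of the DMCs and 3.21% of the CpGs tested, and unplaced scaffolds held 12.8% and 2.81%. The median size of the difference was 37.2 points and 14 exceeded 50 points. At 13 the mean of T was under 5%. Of those on autosomes and X, 13 came from each of the classes 20% to 40% and 40% to 60%, 7 from 5% to 20%, 6 from 60% to 80% and 1 from each of the 2 classes above. The level of a CpG is the mean of WSD and T+WSD, and at most DMCs one of these groups lay near C and the other near T, which by itself places the mean between them, so nothing is read from these counts. From the sparsest to the densest class stood 29.8%, 21.3%, 17.02%, 12.8% and 6.38% of the DMCs, against 25.3%, 17.8%, 20.02%, 16.8% and 17.3% of the CpGs tested. Both sets are shares of the whole, and members on unplaced scaffolds fall in no class. Within the classes, in the same order, DMCs were 0.00657%, 0.00667%, 0.00475%, 0.00426% and 0.00207% of the CpGs tested. With C and T alone in the fit, which removes the diet animals from the estimate of the spread, 46 CpGs were called, and 22 of the 47 were among them.

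The largest difference was at chr4:45310582 (build rheMac8). Only C and T values are given for the single DMCs here, and the diet groups are placed beside the DMCs further below. C animals had 65.9% to 84.8% there, with a median of 72.9%, and T animals 0% to 5%, with a median of 0%. T was at or close to 0 in every animal and the groups were far apart, by -72.3 points (limma adjusted p = 6.34e-07). Of its 4 measured neighbours within 100 bp, 2 differed in the same direction and their mean difference was 0.0833 points, so among the positions measured within 100 bp this one stood alone.

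A second CpG near 0 in T was chr20:1148500, with 42.1% to 69.2% in C and 0% to 2.38% in T, over the 5 animals of each group with a value. The difference was -56.9 points (limma adjusted p = 2.25e-05). The CpG chr15:2945858 stood at 65.5% to 81.8% in C and at 0% to 15.4% in T, where T 13 had no value and T 15 was the highest. Its difference was -69.4 points (limma adjusted p = 0.000582).

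On chromosome 8, chr8:51154958 ran from 75.1% to 98.2% in C and from 12.1% to 36.4% in T, a difference of -65.1 points (limma adjusted p = 2.25e-05). Both of its neighbours within 100 bp were lower as well, with a mean difference of -18.01 points. These were among the 10 largest outside the DMRs of at least 3 CpGs, with 1 taken per 1 kb. The others were chr11:130760594, chr8:22499137, chr12:113343591, chr18:37845603, chr1:155416371 and chr1:187674202. Their differences ran from -62.2 to -49.6 points, and at each of them the groups did not overlap. Only 4 T animals had a value at chr8:22499137, chr12:113343591 and chr1:155416371, and 5 at chr11:130760594. The calls at chr12:113343591 and chr1:155416371 were lost in 3 of the 12 runs that left out an animal, and those at the other 10 named DMCs in 0.

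Higher methylation in T was called at 2 CpGs. At chrX:67570373 C animals ran from 21.1% through a median of 32.4% to 47.2%, and T animals from 66.0% through a median of 73.2% to 85.7%. The difference was 41.1 points (limma adjusted p = 0.0139), and 5 of its 7 neighbours within 100 bp were higher too. The other, on an unplaced scaffold, was at 39.2% to 50% in C and 58.2% to 64.98% in T.

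Most measured positions near the called CpGs differed in the same direction as these. Within 100 bp of the 47 DMCs lay 176 measured positions that were not DMCs themselves. Of these, 142 differed in the same direction as the nearest DMC, and the median difference of the 166 beside a lower DMC was -9.78 points. Over all CpGs, 51.1% were lower in T and 42.4% higher, with a median difference of -0.0683 points. The DMCs were picked by this same contrast, and positions that passed were left out. The count therefore describes these positions only, and nothing is read from their smaller differences. One DMC had a measured position directly beside it, which can be the other strand of the same CpG. At chrX:113222519 C animals ran from 23.8% to 69.2% and T animals from 0% to 6.25%, a difference of -41.2 points (limma adjusted p = 0.0107), while the adjacent position differed by -0.0417 points. This position is singled out for that contrast, after its values were seen.

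The group means of the DMCs followed the series of animal numbers. Over the 45 lower DMCs the median of the group means was 69.8% for C and 61.7% for T+WSD, but 17.1% for T and 18.9% for WSD. At 43 of the 47 DMCs the mean of WSD lay nearer to T and that of T+WSD nearer to C. The interaction of testosterone and diet, which is the difference of T+WSD from WSD minus the difference of T from C, was called at 44 of the 47 by limma with the thresholds above, against 0.0174% of all CpGs. That contrast sets animals 1 to 12 against animals 13 to 24 and uses the C and T animals again, so it is not a separate line of evidence.

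With all 24 animals and the series of animal numbers as a term in place of the interaction, limma called 0 CpGs, and 0 of the 47. At an unadjusted p under 0.05 stood 33051 lower and 16505 higher CpGs, with 14 of the 47 DMCs among them. Of the 45 lower DMCs, 38 had a negative difference, and the median of the 45 was -4.79 points. The T and C values that picked these DMCs enter this fit again, so nothing is read from that count. This fit was added after the data had been seen, takes the effect of testosterone as its mean over both diets and assumes that diet does not alter it.

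**Figure D4:**
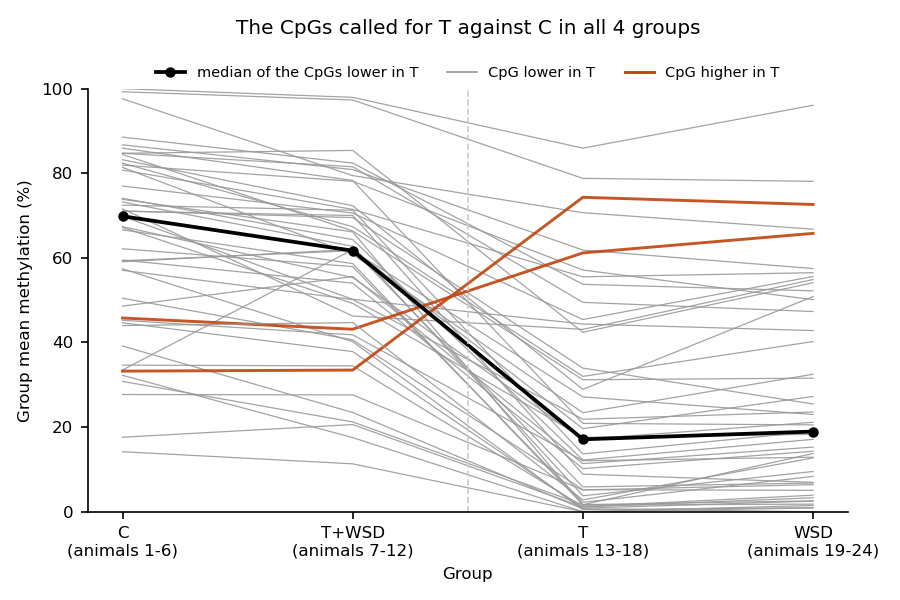
Group mean methylation in percent at the 47 called CpGs, with the groups ordered by animal number, the animals numbered 1-12 left of the dashed line and those numbered 13-24 right of it. The median of the 45 CpGs lower in T is 69.8% in C and 61.7% in T+WSD, against 17.1% in T and 18.9% in WSD.

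Neighbouring CpGs were next combined into differentially methylated regions (DMRs). The procedure, written anew after comb-p, joins CpGs whose combined p-values are low, and its counts may depart from those of the original tool. Regions were kept from 2 CpGs upward where the Sidak p was under 0.1 and the difference exceeded 10 points. It gave 21 DMRs, which held 130 CpGs, or 0.0155% of all CpGs. T was lower in 19 and higher in 2. Of the 17 with at least 3 CpGs, 15 were lower, and 14 of the 17 were measured at each CpG in all 12 animals. In 7 of these 14 all T animals lay on one side of all C animals. In tiles of 1 kb, the nearest regional measure, all T animals lay below all C animals in 0.412% and above them in 0.118%, or 0.53% in either direction. The DMRs were picked by this same contrast, so nothing is read from their count. With C and T alone in the fit 12 DMRs were found, and 8 of the 21 were recovered. When CpGs were limited to mean levels of 5% to 95% there were 11, all of them among the 21.

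The longest DMR, chr17:29478316-29478648, held 14 CpGs and differed by -30.7 points as a mean over its CpGs. The change was not spread evenly. The first 5 CpGs, within 36 bp of its start, had group means of at most 5.57% in both groups. From 258 bp onward the 9 other CpGs had means of 54.6% to 88.1% in C and 14.96% to 40.8% in T. Animals were not measured at the same CpGs, since T 16 had a value at the first 5 alone and C 5 at the last 9 alone, so the animal means over the whole region, which the plot of regions shows, do not cover the same CpGs. Over the last 9 CpGs the C animals ran from 59.5% through a median of 80.2% to 92.7%, and the 5 T animals with a value from 14.5% through a median of 28.5% to 53.8%. These did not overlap, with T 13 lowest and T 14 the highest of T.

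A denser drop was seen at chrX:1237405-1237468, where 5 CpGs had the largest difference of any DMR, -41.1 points. C animals ran from 27.4% to 80.4% and T animals from 9.41% to 36.3%. The groups overlapped through C 5, the lowest C animal, which lay below T 13 and T 18. At chr17:91904330-91904511 the difference was -34.5 points, with C at 32.4% to 65.02% and T at 9.37% to 33.8%, which overlap as well.

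The region chr4:37257201-37257373, with 5 CpGs, separated the groups with even values, 48.1% to 65.03% in C and 23.1% to 32.0% in T. Its difference was -27.6 points, and each of its 5 CpGs differed by -33.2 to -23.7 points. In chr19:45316411-45316481, of 7 CpGs, C ran from 22% to 39.1% and T from 8.16% to 17.5%, a difference of -17.95 points. The T+WSD mean of that region was 54.3%, above both C and T, whereas WSD was at 13.1%.

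Methylation was higher in T in 2 regions. At chr4:171431540-171431582, C animals ran from 30.15% through a median of 35.8% to 40.6% and T animals from 52.7% through a median of 54.9% to 58.6%. The groups did not overlap, and all 6 CpGs were higher in T, by 15.6 to 21.9 points. WSD and T+WSD were higher still, at 59.5% and 66.4%. At chr19:12976537-12976767, of 11 CpGs, the difference was 16.02 points, C 2 at 38.0% and C 6 at 21.6% lay within the range of the T animals, only 2 T animals lay above all C animals, and the call was lost in 14 of 21 alternatives.

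The placement of the diet groups was mixed in the regions. Both WSD and T+WSD lay nearer to T in 10 of the 21, and 9 had WSD nearer to T with T+WSD nearer to C. Among the former, 3 regions are given as examples, chosen after their values were seen. The region chrX:123810343-123810402 had a mean of 37.5% for C and of 22.05% for T, with 24.2% for WSD and 23.9% for T+WSD. For chr20:1021913-1022042 the means were 52.3%, 38.1%, 43.8% and 38.3%, and for chr16:66958637-66958946 they were 25.9%, 13.05%, 15.7% and 15.6%. T lay wholly below C in each of them. Leaving out 1 animal at a time lost the call at chr20:1021913-1022042 in 7 of 12 runs and that at chrX:123810343-123810402 in 1, while the third was kept. These means share the C animals, so they are given side by side and were not tested against each other.

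**Figure D5:**
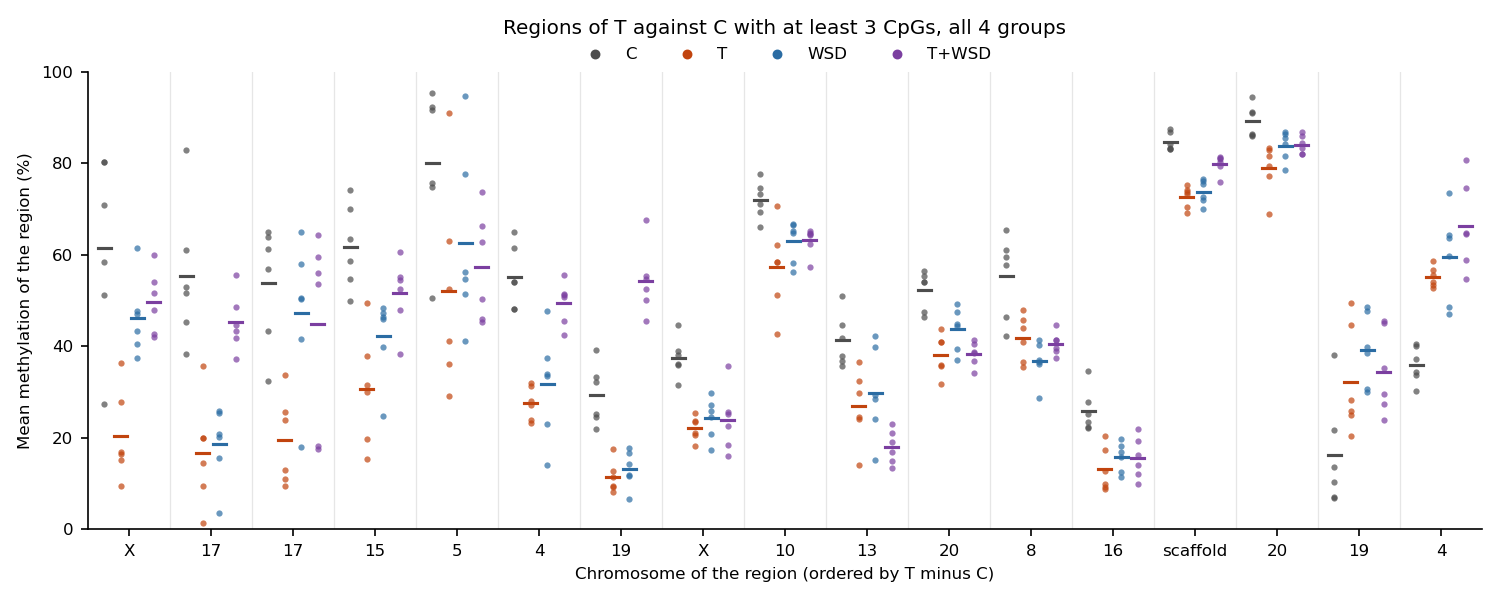
Mean methylation in percent of each animal in the 17 DMRs with at least 3 CpGs, ordered by T minus C, with the group mean as a bar and each mean taken over the CpGs measured in that animal (T 16 and C 5 share no CpG in the region of 14 CpGs on chromosome 17). By group mean, C is the highest of the 4 groups in 14 of the 15 regions lower in T, and the exception is the region on chromosome 19, where T+WSD is highest at 54.3%. These regions were picked for C above T, which favours a high C by itself, so nothing is read from this count.

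Windows of 1 kb gave a regional test that uses no model of neighbouring p-values. Of 100864 tiles with at least 3 CpGs, 8 were called, or 0.00793%, and all 8 were lower in T (limma adjusted p under 0.05 and over 10 points). At an unadjusted p under 0.05 stood 5059 lower and 1718 higher tiles. Part of a DMR lay in 4 of the 8, against 0.0178% of all tiles, and all T animals lay below all C animals in 7, against 0.412% of all tiles. Both counts come from the contrast that picked the tiles and describe them only.

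The most stable tile was chr8:51154001-51155000, with 3 CpGs that included a DMC. C animals ran from 79.0% through a median of 88.5% to 93.2% and T animals from 45.4% through a median of 53.1% to 68.2%. The difference was -33.4 points (limma adjusted p = 0.000192), and the call was kept in all 16 alternatives in which the tile was tested. The 2 tiles on chromosome 3, chr3:2787001-2788000 and chr3:34361001-34362000, differed by -18.2 and -20.2 points and held 1 DMC each.

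The tile count itself was fragile. Without 1 animal the count was 2 to 8, with 2 tiles left without T 18, C 3 or C 6 and 3 left without T 15, T 17, C 1 or C 4. Of the 8 tiles, 5 were lost in at least 50% of the alternatives tried. The interaction was called at 6 of the 8, against 0.0178% of all tiles. It contains the T and C difference that picked these tiles and sets the number series against each other, so nothing is read from this count.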

How the data were processed

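The deposited values are the percent of methylated reads at each CpG, which the authors made for each animal. The submitters' processing notes name FastQC 0.11.5, Trim Galore 0.4.2 and Bismark 0.16.1, and the methods of the study name the rheMac8 build. A CpG needed a coverage of at least 10 in at least 4 animals per group. Read counts were not used here, so depth at single CpGs is unknown, no interval from reads was computed, and values from fewer reads are noisier.

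Groups came from the labels, and each animal was 1 replicate. Class means were compared by exact permutation tests (two-sided, all 924 ways to split 12 animals into 6 and 6), with Benjamini-Hochberg adjustment within each family. DMCs and tiles were tested with limma 3.58.1 in R 4.3.3, on arcsine-transformed rates with the 4 groups as one factor and a missing value left out. The fit was repeated in Python 3.11.15 and gave the same calls. DMRs followed the comb-p procedure, written out again, with steps of 50 bp and joining within 300 bp. All were tested on simulated data first. Named were DMRs with at least 3 CpGs, DMCs higher in T, the 10 largest DMCs outside such DMRs (1 per 1 kb) and called tiles; not every one of them is described singly.

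The comparison, classes and rules were chosen with earlier results of these data known. Gene features, promoters, gene lists, cell type markers and sequences were not analysed here, as no genome or annotation of this build was used, and the tissue label was not checked against markers.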

Additional observations from a re-analysis of the deposited data

Results flagged for a closer look

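Of 216 groups of animals examined, 19 held a lone value far from the others, and chance gives about 1 in 20. Many of these groups share CpGs. C 1 was the highest C animal at CpGs under 5% (1.35%), in the densest class (14.5%), in dense CpGs under 20% (2.66%) and over 80% (93.6%), and on chromosomes 1 (45.1%), 5 (46.4%), 11 (46.5%) and 17 (50.2%). T 18 was the lowest T animal in CpGs over 80% with 7 to 16 positions (91.5%) and on chromosomes 1 (43.0%), 6 (42.2%) and 14 (44.2%). T 13 was the highest T animal at CpGs under 5% (1.56%) and in dense CpGs under 20% (3.06%). C 2 was the lowest C animal for chromosome 14 minus the rest (-1.61 points). T 16, with the most missing CpGs, had the largest distance from the median of the diet animals (15.5 points, the other T animals 9.54 to 11.4). Single T animals stood above the others at chr12:113343591 (T 14, 8.82%), chr15:2945858 (T 15, 15.4%) and chr20:1148500 (T 14, 2.38%).

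The limma interaction, which is the difference in the effect of testosterone between the diets, was called at all 12 DMCs named by the rule and 6 of the 8 tiles. Given as the effect on WSD minus the effect on chow, the differences were 137 points at chr4:45310582, 125 at chr11:130760594, 123 at chr15:2945858, 123 at chr8:51154958, 111 at chr18:37845603, 110 at chr12:113343591, 109 at chr8:22499137, 96.2 at chr20:1148500, 80.6 at chr1:187674202 and 75.8 at chr1:155416371. They were -80.2 at chrX:67570373 and -38.0 at the scaffold CpG that was higher in T. For the tiles they were 59.2 points on chromosome 19, 32.8 and 41.1 on chromosome 3, 45.4 on chromosome 4, 62.0 on chromosome 8 and 18.1 on a scaffold. The T and C difference that picked these DMCs and tiles is part of the interaction, so nothing is read from the counts or the sizes. The interaction and the series of animal numbers cannot be told apart.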

How the results depend on the processing

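Leaving out 1 animal at a time gave 36 to 46 DMCs, 16 to 29 DMRs, 2 to 8 tiles, 0 to 4 level classes, 2 to 3 density classes, 1 to 5 crossed classes, 0 to 15 chromosomes and 0 to 1 chromosomes against the rest. Mean methylation then differed by -0.644 to -0.402 points, the intermediate share by 0.749 to 1.29 and the distance by -0.889 to 0.319. Small values changed sign, among them CpGs under 5% (-0.0720 to 0.0453), the densest class (-0.154 to 0.273), dense CpGs under 20% (-0.153 to 0.119), of 20% to 80% (-0.574 to 1.11) and over 80% (-0.273 to 0.0219), and chromosomes 5 (-0.0434 to 0.0268), 12 (-0.0440 to 0.0693) and 14 (-0.0261 to 0.0340) against the rest. Over CpGs measured in all 24 animals 5 chromosomes passed and 0 against the rest, with chromosome 5 at 0.0391. With levels set by all 24 animals 2 level classes passed, and with an equal mix of levels 4 chromosomes. Against the other 11 animals the distance differed by 0.607, and limits of 10% and 90% gave a share of 0.940. DMRs were 12 with C and T alone in the fit, with 8 of the 21 recovered, and 11 at mean levels of 5% to 95%. Tiles were 2 by log ratio, 4 with C and T alone, with 3 of the 8 recovered, and 4 with at least 5 CpGs. DMC counts with C and T alone were 46, of which 22 were among the 47.

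Leaving out C 1 and T 18 together, the highest and lowest means, was added after seeing the data. It gave a mean difference of -0.269, 0 level classes, 1 density class, 0 chromosomes, 0 against the rest and 26 DMCs, and values of 0.0427 at 5% to 20%, 0.0828 at 14 to 22 positions and 0.0251, -0.00359 and 0.00457 for chromosomes 5, 12 and 14 against the rest. Where a result changed, the cause was not tested. With the series of animal numbers as a term, added likewise, limma called 0 DMCs (49556 CpGs at an unadjusted p under 0.05), and the differences turned to 0.457 at chr11:130760594 and -3.64 at the scaffold CpG higher in T. A second DMR combination, added likewise, gave 19. Feature classes and promoters were not run. Depth behind single values is unknown. No paired analysis was possible because the groups share no replicate numbers.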

Other observations

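Mitochondrial DNA entered no comparison. T animals averaged 1.18% to 2.58% over its measured CpGs. Of the C animals, 4 averaged 0.590% to 1.60%, while C 3 was at 19.1% over 33 CpGs and C 5 at 10.7% over 29 CpGs. Values elsewhere rested on 65 to 113 CpGs per animal.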
